A study of Homo sapiens with 4 samples.

Results

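The genes examined here make, break down, bind or read retinoic acid, the active form of vitamin A, and were chosen by name: the receptors RARA, RARB, RARG and RXRA, the synthesis enzymes ALDH1A1, ALDH1A2 and ALDH1A3, the breakdown enzymes CYP26A1 and CYP26B1, and the binding protein CRABP1. They are 10 of 19819 protein-coding genes with a canonical transcript in GENCODE 44 on GRCh37. MEIS1 and MEIS2 binding near them was read from chromatin immunoprecipitation with sequencing (ChIP-seq) in human neural stem cells (hNSC), a purchased culture grown without serum and left untreated. There were 2 MEIS ChIP samples and 2 Input samples, from batches of cells that the study handled in parallel. The immunoprecipitation combined an antibody against MEIS1 and MEIS2 with another against MEIS1, so a peak does not tell which protein was bound. There was a single condition, so genes and replicates are compared, and a list of peaks does not measure transcripts, so neither the labelled cell type nor the expression of any gene was checked here.

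A site or peak was counted for a gene when its summit lay in the gene body extended by 250 kb on each side. A reproducible site is a region on the authors' list of peaks that both replicates ranked alike by the irreproducible discovery rate (IDR), and a peak is a region that the authors called in a replicate against input. The 10 windows spanned 6.90 Mb and held 18 of the 5169 reproducible sites, 91 of the 36796 replicate 1 peaks and 150 of the 47449 replicate 2 peaks. Strength is given as the −log10 p of a peak and as its fold enrichment of ChIP over input at the summit, both as deposited, and sites are numbered within a gene from the strongest down. Reads per library are not part of these lists, so depth is unknown.

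Retinoic acid is made from retinaldehyde by the ALDH1A enzymes and is hydroxylated and cleared by the CYP26 enzymes, and the balance of both sets its level across the developing hindbrain and spinal cord. CRABP proteins carry it in the cytoplasm. Inside the nucleus it binds receptors of the RAR family, which pair with RXR on direct repeats of a hexamer related to AGGTCA, and several of the genes that bear such repeats, RARB and CYP26A1 among them, encode parts of the same pathway. MEIS1 and MEIS2 are homeodomain proteins of the TALE class that bind the core TGACAG, often together with PBX proteins, and their own genes respond to retinoic acid in many cells.

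Reproducible MEIS sites were found at 9 of the 10 genes, CYP26B1 being the gene without any. Over all protein-coding genes, 47.9% had a reproducible site in the same window. Since longer genes have longer windows, each gene was also set against the 200 protein-coding genes nearest to it in body length, of which between 40.5% for CYP26B1 and 82.0% for RARB had a site. The number of sites per gene stood at a median percentile of 66.4 within these groups, with RARA highest at 93.0 and CYP26B1 lowest at 29.8, and 1 gene of the 10 lay above the 90th percentile. The peaks of the single replicates gave lower medians, at a percentile of 44.9 in replicate 1 and 65.3 in replicate 2. All 10 genes had a peak in each replicate, as did 97.4% of protein-coding genes in replicate 1 and 98.3% in replicate 2, so the presence of a peak did not separate these genes from the rest.

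**Figure D1:**
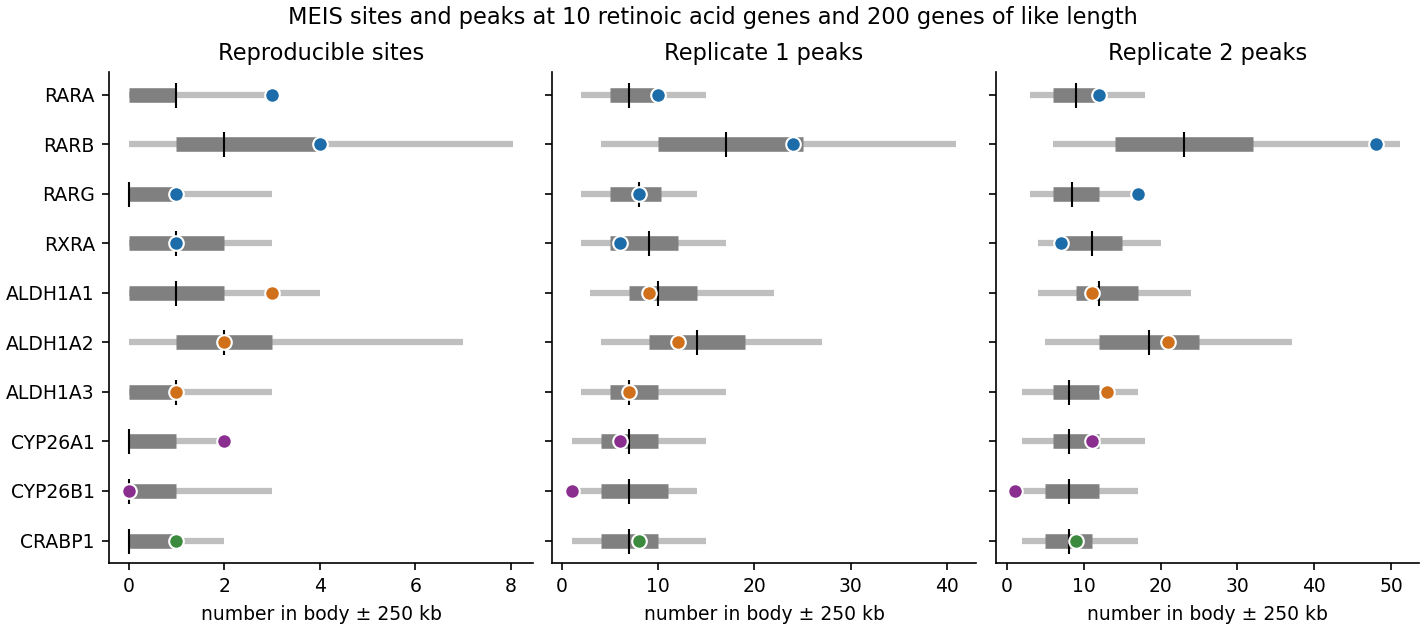
Number of reproducible sites, replicate 1 peaks and replicate 2 peaks in the body extended by 250 kb (x axes) for each gene (coloured points; blue receptors, orange synthesis, purple breakdown, green binding protein), over the 200 genes of like body length (tick, median; dark bar, 25th to 75th percentile; light bar, 5th to 95th). CYP26B1 had 0 sites and 1 peak in each replicate, and RARB had 48 replicate 2 peaks where its like-length genes had a median of 23.

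The sites were distributed over the roles as 9 at the receptor genes, 6 at the synthesis genes, 2 at the breakdown genes and 1 at CRABP1. None lay within 5 kb of the canonical transcription start site (TSS) of its gene, a distance at which 2.42% of protein-coding genes had a site. Of the 18 sites, 10 lay inside the annotated body of the gene and 8 outside it, and for 7 the gene had the nearest canonical TSS of all protein-coding genes. A site in a window is thus assigned to the gene by distance alone. By canonical TSS another gene started closer for 11 of the 18. With the starts of all annotated transcripts counted, the gene itself was nearest for 10. Only RARB had a replicate peak within 5 kb of its canonical TSS, in both replicates, where 27.0% of protein-coding genes had one in replicate 1 and 27.1% in replicate 2.

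**Figure D2:**
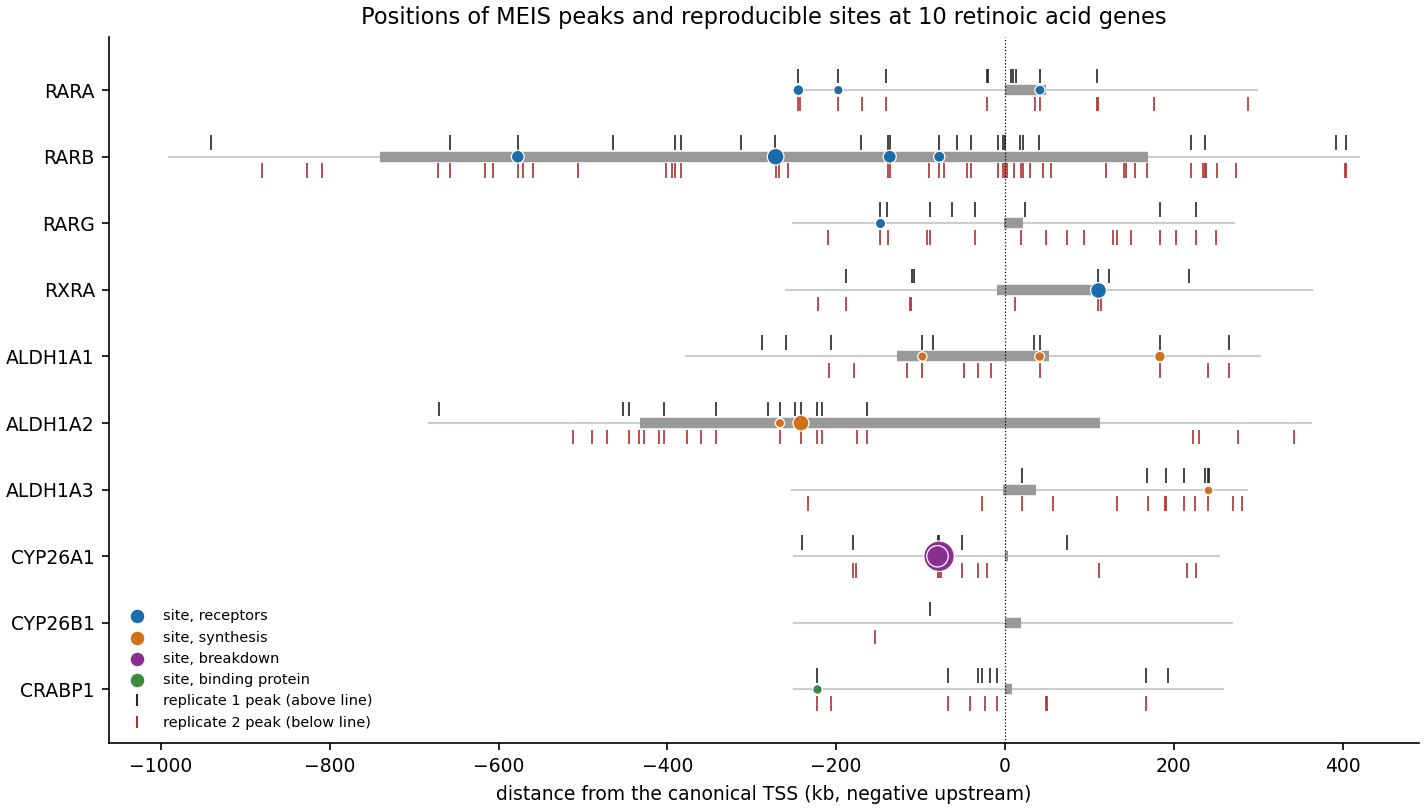
Position of each reproducible site (circle, area rising with −log10 p), replicate 1 peak (black tick above the line) and replicate 2 peak (red tick below) along the distance from the canonical TSS in kb, with the gene body as a grey bar and the 250 kb extension as a thin line. The pair of CYP26A1 sites at −78.1 and −79.9 kb has the largest circles, and the 4 RARB sites all lie upstream of its canonical TSS and inside its body.

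CYP26A1, the cytochrome P450 enzyme that clears retinoic acid, had the 2 sites with the highest −log10 p on the list of reproducible sites among the 10 genes. The list gives the lower of the replicate values. The gene lies at chr10:94833232-94837642 and is 4.41 kb long. Site 1, with its summit 78.1 kb upstream of the canonical TSS, had a −log10 p of 353 and 258 in replicates 1 and 2, with 29.0-fold and 43.6-fold enrichment over input. It ranked 223rd of the 5169 sites, and 1.5% of the 200 genes of like length had a strongest site with a −log10 p as high. Site 2, a further 1.76 kb upstream, had a −log10 p of 122 and 132 in replicates 1 and 2 and ranked 574th. Site 1 was the highest of the 18 in each replicate, while site 2 was below RARB site 1 in replicate 1 and had a fold enrichment of 10.7 there, less than RARB site 1 and RXRA site 1. The replicates placed their summits within 1 bp of each other at site 1 and 12 bp at site 2. Both lay in intron 18 of EXOC6, which encodes a subunit of the exocyst, and another annotated transcript of EXOC6 started 1.72 kb and 3.48 kb away. Among canonical TSS the nearest was that of CYP26C1, another retinoic acid hydroxylase, at 65.0 kb and 66.8 kb. The peaks nearest to the CYP26A1 start lay at −50.8 kb in replicate 1 and −21.4 kb in replicate 2, with a −log10 p of 5.64 and 9.77. The remaining peaks were far weaker than the sites, the strongest outside the list lying 180 kb upstream with a −log10 p of 11.5 and 16.5 in replicates 1 and 2.

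The reference sequence around both CYP26A1 summits is shown because these have the highest listed −log10 p of the 18 sites and each carries a TGACAG near its summit, 19.5 bp away at site 1 and 28.5 bp away at site 2. Site 2 also carries TGATTGAC, the composite form bound by PBX and MEIS proteins together, 84.5 bp from its summit. All sequences are from the plus strand of GRCh37. Here capitals mark TGACAG or its reverse complement and, at CYP26A1 site 2, TGATTGAC in reverse complement at the left end.
CYP26A1 site 1, chr10:94755441-94755591: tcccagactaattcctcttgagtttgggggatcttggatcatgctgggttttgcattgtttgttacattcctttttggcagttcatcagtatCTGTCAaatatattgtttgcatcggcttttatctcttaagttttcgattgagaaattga
CYP26A1 site 2, chr10:94753657-94753847: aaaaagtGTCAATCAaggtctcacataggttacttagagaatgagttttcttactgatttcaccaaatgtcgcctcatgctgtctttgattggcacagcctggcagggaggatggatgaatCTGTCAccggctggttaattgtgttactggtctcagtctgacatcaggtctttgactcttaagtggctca

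CYP26B1, the other breakdown enzyme (chr2:72356367-72374991), had the fewest peaks of the 10 genes. Replicate 1 had a single peak 88.7 kb upstream with a −log10 p of 3.36, and replicate 2 had a single peak 154 kb upstream with a −log10 p of 2.24. These were different places, and both values were close to the threshold of the peak calls, a p of 0.01. Its peak numbers stood at percentiles of 4.25 in replicate 1 and 3.50 in replicate 2 among genes of like length, whose medians were 7 and 8. Of those 200 genes, 97.5% had as many peaks or more in replicate 1. The nearest reproducible site lay 368 kb from its TSS, which is 118 kb beyond the edge of the window. Of the 2 breakdown enzymes, CYP26A1 thus had the sites with the highest listed −log10 p of the 10 genes, while CYP26B1 had no listed site to rank.

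RARB, a nuclear receptor for retinoic acid, had 4 reproducible sites, the most of the 10 genes, in the longest window (chr3:24729378-25639423, a body of 910 kb). The order of genes depends on the window: with the body of the canonical transcript RARB had 2 sites against 3 at RARA and ALDH1A1, and with an extension of 500 kb it had 4 against 7 at ALDH1A1. Genes of like length had a median of 2 sites, which put RARB at a percentile of 71.8. All of its sites lay in the part of the gene record upstream of the canonical TSS, where only longer annotated RARB transcripts reach, and no summit fell in an exon of the gene. Site 1, 272 kb upstream, had a −log10 p of 124 and 70.1 in replicates 1 and 2, with 14.8-fold and 14.0-fold enrichment. Site 2, 137 kb upstream, had 72.0 and 39.0. Site 3, 577 kb upstream, had 37 and 56.4, and site 4, 77.8 kb upstream, had 25.8 and 41.7. By −log10 p, replicate 1 was higher at sites 1 and 2 and replicate 2 at sites 3 and 4, and site 3 exceeded site 4 in both. By canonical starts, site 3 lay nearest to THRB, a thyroid hormone receptor gene, at 356 kb, while another annotated RARB transcript started 7.56 kb from it.

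None of the 4 RARB sites held TGACAG in the 500 bp around its summit, while all 3 RARA sites and both CYP26A1 sites did. Over their whole width, of 905 to 2260 bp, sites 1, 2 and 3 held 1 TGACAG each and site 4 held none. At site 2 this match fell within the 500 bp around the replicate 1 summit but not around that of replicate 2. The summits of site 1 differed by 624 bp between the replicates, the largest gap of the 18 sites, whose median was 16 bp. The sequences printed here show the centres of sites 1 and 2, in which no capitals appear. The first holds a run of 31 A. RARB site 1 had a GC content of 35.2% over 500 bp, against a median of 45.4% for the 18 sites and 42.0% for all sites. CYP26A1 site 1 had 33.6%, with a summit gap of 1 bp. The part of the run of A in the placing of reads or summits was not tested.
RARB site 1, chr3:25197969-25198119: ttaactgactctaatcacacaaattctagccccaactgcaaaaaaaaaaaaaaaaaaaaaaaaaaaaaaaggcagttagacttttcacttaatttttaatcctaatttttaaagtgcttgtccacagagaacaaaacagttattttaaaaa
RARB site 2, chr3:25333115-25333265: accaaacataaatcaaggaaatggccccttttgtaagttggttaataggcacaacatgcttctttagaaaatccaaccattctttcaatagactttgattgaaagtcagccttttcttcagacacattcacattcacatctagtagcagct

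**Figure D3:**
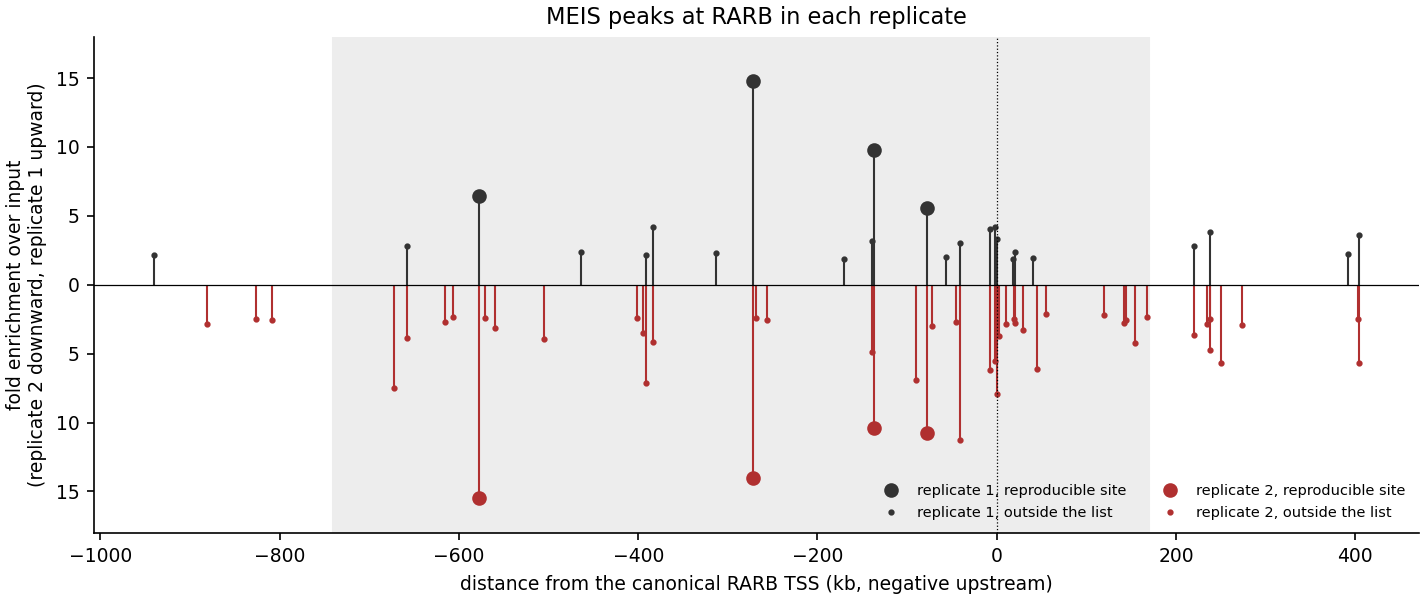
Fold enrichment over input of every RARB peak (replicate 1 upward, replicate 2 downward) against the distance from the canonical TSS in kb, with the gene body shaded and reproducible sites as large points. Sites 1 to 4 reach between 5.54-fold and 15.5-fold, and peaks of both replicates stand at the TSS with 3.35-fold and 7.93-fold.

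Below the list of reproducible sites, RARB was the gene with a peak on its canonical start in both replicates. At RARA, peaks of a single replicate lay 0.085 and 0.373 kb (replicate 1) and 0.071 kb (replicate 2) from starts of other annotated transcripts, with a −log10 p of 6.98, 4.50 and 3.17. Replicate 1 placed a summit 6 bp before the canonical TSS, at a −log10 p of 10.3 and 3.35-fold enrichment, and replicate 2 placed its own on the TSS itself, at a −log10 p of 25.4 and 7.93-fold enrichment. The weakest site on the list had a −log10 p of 12.5, so the replicate 1 value was below every listed site and the replicate 2 value was not. Another peak 1.78 kb upstream had a −log10 p of 16.4 and 13.0 in replicates 1 and 2, and another 8.05 kb upstream had 14.6 and 14.3. Both exceeded 12.5 in each replicate and were still outside the list, which is set by IDR. A further peak outside the list, 40.5 kb upstream, had 7.49 in replicate 1 and 38.6 in replicate 2. Summits of both replicates fell within 250 bp of the canonical TSS at 757 of the 19819 genes, or 3.82%.

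The peak on the RARB start covered a direct repeat of the receptor hexamer with 5 bases between its copies (DR5), the retinoic acid response element for which this promoter is known. Its midpoint lay 45 bp upstream of the canonical TSS, 39 bp from the replicate 1 summit and 45 bp from the replicate 2 summit. A TGACAG began 1 bp downstream of the same TSS. In windows of 500 bp around canonical TSS, a DR5 was present at 19 of 19819 genes (0.0959%). Of these 19, RARB was the only 1 with a summit of either replicate within 250 bp of the TSS. It had summits of both replicates, so the share with both was 5.26%, near the 3.82% of all canonical TSS. TGACAG was present in 21.2% of the same windows. The repeat was searched on both strands, with either purine as the first base of each hexamer and G or T as the third. A short stretch around each match is shown, the first with the DR5 in capitals and the second with TGACAG in capitals.
RARB promoter, chr3:25469695-25469723: gggtagGGTTCACCGAAAGTTCActcgca
RARB start, chr3:25469743-25469772: tttcattctgtgTGACAGaagtagtaggaa

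As a ratio of peak numbers, the replicates differed most at RARG and RARB. RARB had 24 peaks in replicate 1 and 48 in replicate 2, at percentiles of 74.3 and 93.8 among genes of like length. Of the 48 replicate 2 peaks, 4 were in the list, 12 more had a counterpart in replicate 1 and 32 did not. RARG had 8 and 17 peaks, at percentiles of 54.3 and 95.3. ALDH1A3, with 7 and 13 peaks, moved from a percentile of 46.3 to 80.5, and CYP26A1, with 6 and 11, from 42.8 to 70.8. At 9 of the 10 genes replicate 2 had more peaks than replicate 1, and the list of replicate 2 was longer throughout.

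RARA, which encodes retinoic acid receptor alpha (chr17:38465432-38513895), had 3 sites where genes of like length had a median of 1. Site 2 lay in its intron 4, 41.4 kb downstream of the canonical TSS and 0.781 kb from the start of another annotated RARA transcript. It had a −log10 p of 31.2 and 18.8 in replicates 1 and 2, with 6.69-fold and 7.71-fold enrichment and a TGACAG 10.5 bp from its summit. The other RARA sites lay far upstream among other genes. Site 1, at −245 kb, had a −log10 p of 23 and 23.1 in replicates 1 and 2 and lay in intron 1 of THRA, the gene of thyroid hormone receptor alpha, 1.48 kb from its canonical TSS. Site 3, at −197 kb, had 15.9 and 26.7 and lay 10.2 kb from MSL1, which encodes a subunit of a histone acetyltransferase complex, and 11.2 kb from NR1D1, a nuclear receptor of the circadian clock. The RARA window held 13 canonical TSS of protein-coding genes and that of RARG held 20, against 1 for CYP26B1, so at these receptors a site had many other genes beside it.

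Outside the list, the RARA peak nearest to the canonical TSS was also the strongest of replicate 1, at 7.57 kb with a −log10 p of 8.91. In replicate 2 the nearest lay at −21.2 kb with 4.89 and the strongest at −169 kb with 9.09.

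RARA site 1 is shown for its number of motifs, since it held 6 TGACAG within 500 bp, more than any other of the 18 sites. Of these, 3 fall in the stretch printed here, at 58.5, 4.5 and 13.5 bp from the summit. RARA site 2 is shown as the site inside the gene.
RARA site 1, chr17:38220594-38220794: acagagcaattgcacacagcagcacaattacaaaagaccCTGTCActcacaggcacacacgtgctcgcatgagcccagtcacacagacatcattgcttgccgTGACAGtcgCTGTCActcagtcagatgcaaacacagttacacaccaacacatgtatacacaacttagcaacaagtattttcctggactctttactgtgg
RARA site 2, chr17:38506808-38506908: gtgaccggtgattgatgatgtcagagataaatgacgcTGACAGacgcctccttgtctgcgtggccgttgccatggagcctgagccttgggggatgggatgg

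RXRA encodes the partner with which the retinoic acid receptors bind DNA (chr9:137208944-137332431). Its 1 site was strong in both replicates, with a −log10 p of 90.5 and 61.9 and 13.0-fold and 17.3-fold enrichment, and it lay 111 kb downstream of the canonical TSS in the 3′ untranslated part of exon 10. A TGACAG lay 54.5 bp from the summit, in the stretch printed here. RXRA had few other peaks, with 6 in replicate 1 and 7 in replicate 2, at percentiles of 29.0 and 22.3 among genes of like length. Outside the list, its strongest peaks, at different places, reached a −log10 p of 6.55 in replicate 1 and of 4.98 in replicate 2. The peaks nearest to the TSS lay at −108 kb in replicate 1 and 11.4 kb in replicate 2, with 2.5 and 2.79.
RXRA site 1, chr9:137328923-137328946: gccagcccgTGACAGcttccccct

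RARG, retinoic acid receptor gamma (chr12:53604351-53626764), had 1 site 147 kb upstream with a −log10 p of 20.1 and 22.9 in replicates 1 and 2. It lay 0.484 kb from the canonical TSS of SP1, a general promoter-binding factor, and is thus a site at the start of another gene. The RARG peaks nearest to its own TSS were weak, with a −log10 p of 4.05 at 23.6 kb in replicate 1 and 4.68 at 18.7 kb in replicate 2. The strongest outside the list, 183 kb downstream in both replicates, had 11.8 and 14.0.

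The synthesis enzymes had 6 sites, of which 1 was strong. ALDH1A2, the main retinaldehyde dehydrogenase of the early embryo, lies at chr15:58245622-58790065, and its site 1 had a −log10 p of 63.2 and 124 in replicates 1 and 2, with 8.92-fold and 23.6-fold enrichment. This was the only 1 of the 6 sites with an IDR of 0.001 or less, which 3124 of all 5169 sites had. It lay 242 kb upstream of the canonical TSS, within the record of longer ALDH1A2 transcripts, with another ALDH1A2 transcript starting 24.0 kb away and LIPC, the gene of hepatic lipase, having the nearest canonical TSS at 125 kb. The replicates placed its summit within 2 bp of each other. It held no TGACAG over its full 1804 bp. Site 2, 267 kb upstream and 0.693 kb from the start of another annotated ALDH1A2 transcript, was near the foot of the list, with 14.4 and 21.5, and was lost when the strongest peaks of replicate 1 alone were taken, which held 1 at ALDH1A2. Nearest to the TSS, peaks of both replicates at −163 kb had 6.63 and 16.7, and the strongest outside the list, at −445 kb, had 9.91 and 18.6. The central part of site 1 is shown because it is the strongest of the 18 sites with no TGACAG over its whole width.
ALDH1A2 site 1, chr15:58599514-58599664: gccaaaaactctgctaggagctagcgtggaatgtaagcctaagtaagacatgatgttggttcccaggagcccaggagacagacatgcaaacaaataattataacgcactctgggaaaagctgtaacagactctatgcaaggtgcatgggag

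ALDH1A1 (chr9:75515587-75695358) had 3 sites, with a percentile of 87.0 among genes of like length, and all 3 were below the list's median −log10 p of 29.3. Site 1, 184 kb downstream of the canonical TSS in intron 12 of TMC1, a gene of hair cell mechanotransduction, had a −log10 p of 22.7 and 26.9 in replicates 1 and 2. Site 2 lay in coding exon 10 of ALDH1A1 itself, 41.1 kb downstream of the TSS, with 17.3 and 18.3. Site 3 lay 97.8 kb upstream with 14.9 and 19.3. Outside the list, the peaks nearest to the TSS lay at 34 kb in replicate 1 and −16.1 kb in replicate 2, with 3.55 and 4.45, and the strongest lay at −84.8 kb with 9.34 and at 265 kb with 10.1. When as many of the strongest replicate 2 peaks alone as there are sites were taken in place of the list, 1 ALDH1A1 peak was left.

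ALDH1A3 (chr15:101417919-101456831) had 1 site, the weakest of the 18 and 5134th of the 5169, with a −log10 p of 12.8 and 25.3 in replicates 1 and 2. It lay 241 kb downstream of the TSS, with the nearest canonical TSS, that of the chondroitin synthase gene CHSY1, at 131 kb and the nearest annotated start of any transcript, of LRRK1, at 56.2 kb. A peak outside the list lay inside the gene, 20.7 kb downstream of its TSS, with a −log10 p of 8.98 and 23.1 in replicates 1 and 2. It was the strongest outside the list in replicate 2, and that of replicate 1 lay at 212 kb with 14.4. Replicate 2 was about as high inside the gene as at the listed site, and replicate 1 was lower. Taken alone, the strongest peaks of replicate 1 held 0 at ALDH1A3 and those of replicate 2 held 2.
ALDH1A3 site 1, chr15:101660831-101660854: ccgggccagCTGTCActcatgtgt

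CRABP1, the cytoplasmic binding protein (chr15:78632695-78640567), had 1 site 223 kb upstream, in intron 2 of CIB2, a gene of hair cell and photoreceptor function, with a −log10 p of 16.7 and 26.1 in replicates 1 and 2. Its TGACAG lay 13.5 bp from the summit. Nearer to the gene, peaks of both replicates 67.9 kb upstream had 11.4 and 22.6, and peaks 8.94 kb and 9.20 kb upstream had 9.27 and 9.66. These pairs were outside the list. Taken alone, the strongest peaks of replicate 1 held 0 at CRABP1 and those of replicate 2 held 2.
CRABP1 site 1, chr15:78410129-78410152: tggccccccTGACAGgcagctgag

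The replicates were next compared over all peaks at the 10 genes. Of 91 peaks in replicate 1, 56 shared 1 bp or more with a peak of replicate 2 (61.5%, Wilson 95% interval 51.3 to 70.9), against 49.0% of all replicate 1 peaks. Of 150 peaks in replicate 2, 56 shared a base with replicate 1 (37.3%, 30.0 to 45.3), against 38.0% of all. The intervals cover the number of peaks alone. Besides the 18 sites, 38 pairs of peaks were shared outside the list, with a median −log10 p of 7.73 and 10.1 in replicates 1 and 2. A further 35 replicate 1 peaks and 94 replicate 2 peaks were found in a single replicate, with medians of 4.01 and 3.37. Fold enrichment was higher in replicate 2 at 17 of the 18 sites, RARB site 1 being the exception, and it was higher at 97.4% of all sites. Read counts that would show whether this follows depth or the wash of each library were not analysed here.

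**Figure D4:**
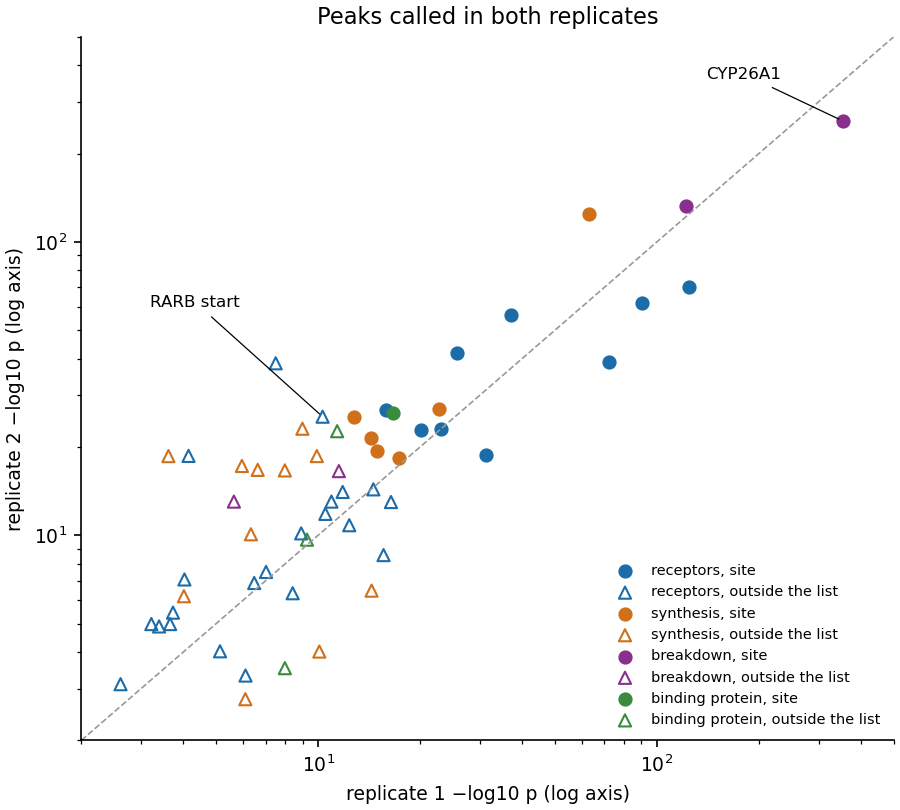
The −log10 p of each peak called in both replicates at the 10 genes, replicate 1 on the x axis and replicate 2 on the y axis, both on log scales, with filled circles for the 18 reproducible sites and open triangles for the 38 pairs outside the list; the dashed line marks equal values. The sites reach from 12.8 to 353 in replicate 1, and the peak on the RARB start, at 10.3 and 25.4, lies beside the weakest of them.

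The sites at these genes had a lower median −log10 p than the list as a whole, at 22.8 against 29.3 over all 5169 sites. Their median fold enrichment was 5.54 against 6.38 in replicate 1 and 9.28 against 11.5 in replicate 2. Of the 18 sites, 7 had a −log10 p above the list's median (38.9%, Wilson interval 20.3 to 61.4). This interval includes an even split, so the 18 sites were too few to be told from the list in strength. An IDR of 0.001 or less was held by 3124 of all 5169 sites. The 8 of the 18 sites with such an IDR lay at RARB (4), CYP26A1 (2), RXRA (1) and ALDH1A2 (1). Those at RARA, RARG, ALDH1A1, ALDH1A3 and CRABP1 all had larger values. Just beyond the windows, the closest excluded site was 25.6 kb past the ALDH1A1 edge, with a −log10 p of 18.5, and the closest included ones were RARA site 1, ALDH1A3 site 1 and CRABP1 site 1.

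TGACAG was present in the 500 bp around the summit at 12 of the 18 sites (66.7%, Wilson 95% interval 43.7 to 83.7). All 5169 sites had it at 58.3%, and windows 5 kb from a site at 28.6%. The share at these genes thus lay above that of the windows beside sites and could not be told from that of all sites. Among the 8 sites with an IDR of 0.001 or less it was 3 of 8 (37.5%), too few to tell from either. The 6 sites without it were the 4 RARB sites, ALDH1A1 site 2 and ALDH1A2 site 1. Among peaks outside the list, TGACAG was present at 35 of 73 in replicate 1 (47.9%, 36.9 to 59.2) and at 72 of 132 in replicate 2 (54.5%, 46.0 to 62.8), against 43.7% and 44.4% of the other peaks outside the list. TGATTGAC was present at 1 of the 18 sites and at 5.78% of all sites.

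**Figure D5:**
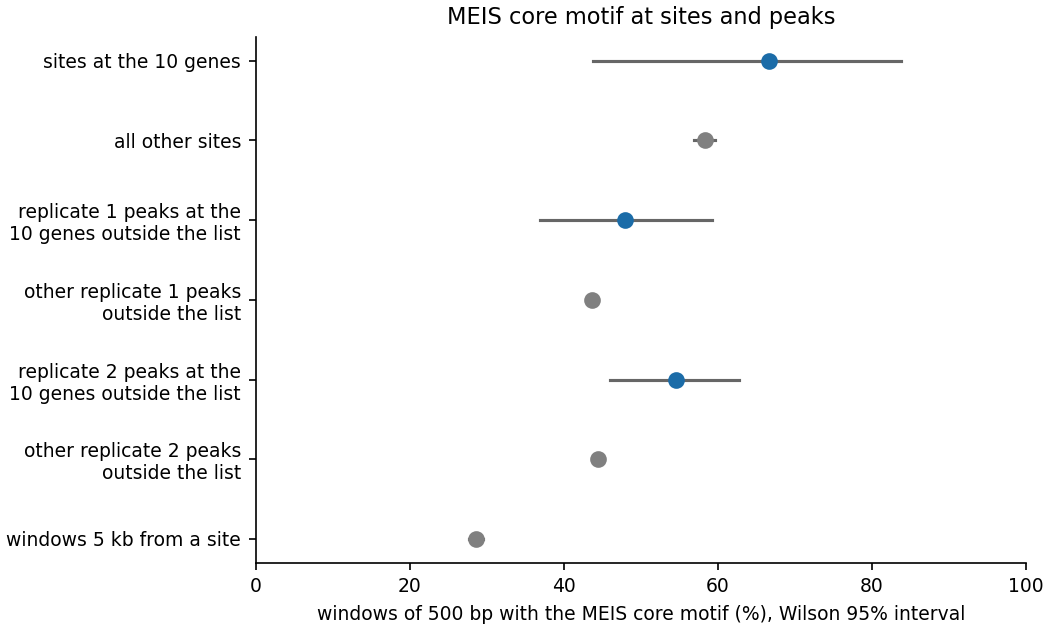
Share of 500 bp windows with the MEIS core motif, in %, with Wilson 95% intervals, for sites and peaks at the 10 genes (blue) and for all others (grey). The 12 of 18 sites give 66.7% with an interval of 43.7 to 83.7, which contains the 58.3% of the other sites and lies above the 28.6% of windows 5 kb away.

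Sequences to which the receptors bind were counted next. AGGTCA was present at 6 of the 18 (33.3%, 16.3 to 56.3) and at 37.1% of all sites, and no site held a direct repeat with 1, 2 or 5 bases between the hexamers (DR1, DR2, DR5). These repeats were present at 0.619%, 0.464% and 0.426% of all sites, so none among 18 is near that background. Among the 38 pairs of peaks outside the list, a repeat was present in both replicates at 3 places: the DR5 of the RARB start, a DR2 at ALDH1A2 and a DR1 at CRABP1. The share over all 12864 such pairs was not computed, so these 3 places are not read as an excess. The ALDH1A2 peak lay 217 kb upstream with a −log10 p of 7.98 and 16.6 in replicates 1 and 2, and the DR1 lay under the CRABP1 peaks about 9 kb upstream. Over all replicate 1 peaks, a wider set than the pairs, 0.399% had a DR1, 1.04% a DR2 and 0.204% a DR5. Replicate 2 held further matches that replicate 1 lacked. Of its 132 peaks outside the list at these genes, 2 had a DR1 (1.52%, 0.416 to 5.36). A DR2 was present at 3 and a DR5 at 3 (each 2.27%, 0.776 to 6.47). Its other peaks outside the list had DR1, DR2 and DR5 at 0.320%, 1.06% and 0.138%. Only the DR2 interval contains the share of the other peaks. Of the 3 DR5, 1 was that of the RARB start. The others lay under peaks of replicate 2 alone at RARB and ALDH1A2, with a −log10 p of 3.68 and 5.79. In replicate 1, each repeat was present at 1 of 73 peaks outside the list at these genes (1.37%, 0.242 to 7.36). With such counts, these shares are not read as an excess either. These matches are letters in the reference and do not show that a receptor was bound. The ALDH1A2 and CRABP1 stretches are shown with the repeat in capitals.
ALDH1A2 repeat, chr15:58574672-58574701: aacaaaggAGGTCAGAAGGTCAgcctggat
CRABP1 repeat, chr15:78623699-78623727: tcggggacTGAACTCTGACCCccattctt

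The core bound by TEAD factors, GGAATG, was present at 9 of the 18 sites and at 38.1% of all sites, and the SOX core ACAATG at 4 of the 18 and at 39.9% of all sites. At CYP26A1 site 1, GGAATG was present 3 times and ACAATG 2 times, the nearest lying 7.5 and 19.5 bp from the summit. With 18 sites, the intervals of 29.0 to 71.0% and 9.0 to 45.2% both contain the share of all sites.

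Of 23 other genes of the retinoid pathway, 15 had a reproducible site in their window, against the 47.9% of all protein-coding genes given above. CRABP2, which carries retinoic acid to the nucleus, had 3 sites, at a percentile of 98.0 among genes of like length, and its strongest, 0.761 kb upstream of its TSS, had a −log10 p of 69.8 and 79.8 in replicates 1 and 2. It thus had a listed site near its canonical TSS, as none of the 10 genes did, and CRABP1 had none within 200 kb. DHRS9, a retinol dehydrogenase, had 1 site 216 kb downstream with 385 and 295, above CYP26A1 site 1. RXRB had 2 sites and DHRS3, a retinaldehyde reductase, had 1 at 13.9 kb. CYP26C1 shared both of the sites described for CYP26A1. No reproducible site was found at RXRG, at STRA6, the cellular retinol importer, at LRAT, which stores retinol as esters, or at RDH11, RDH12, BCO1, FABP5 and NCOA2. These genes were listed for their role in the pathway, with earlier results of these data known.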

How the data were processed

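Sites and peaks were taken from the processed lists of 2 MEIS ChIP samples of untreated hNSC. Samples were grouped by title, and the 2 Input samples entered only through the authors' peak calls. Per the labels and the study's methods, the authors trimmed reads with cutadapt 1.16, mapped them to GRCh37 with Bowtie2 2.3.0, filtered them with SAMtools 1.2, removed duplicates with Picard 2.15.0 and called peaks per replicate with MACS2 (version not given in the sources used here) at a p-value of 0.01. Alternative washes are described, and which library had which is not given in the sources used here. Each deposited peak list holds a ratio, the fold enrichment of ChIP over input, and the −log10 p. The deposited list of reproducible sites gives the authors' IDR score and the −log10 p of the merged site, for these 18 sites the lower of the replicate values. Another 8 columns of per-replicate values were not used, and the strongest overlapping peak of each replicate was taken instead.

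Peak coordinates were compared with the GRCh37 chromosome lengths. Genes came from GENCODE 44, and 279 protein-coding genes without a canonical transcript were left out. Like-length genes were the 200 nearest in body length, and a percentile is the midrank of a gene's number among them. Motifs were searched on both strands in 500 bp centred on summits, and Wilson 95% intervals cover the number of sites or peaks alone. The values of 1 gene of the wider retinoid list are not reported here. No test was run, since genes and peaks are not replicates. All 10 genes are described, with every site, the peak nearest the TSS and the strongest peak outside the list. The genes, lists and alternatives were chosen with earlier results of these data known. Counting, overlap, percentile and motif functions were checked on made-up data. Python 3.11.15, pandas 2.3.3, NumPy 2.4.6, SciPy 1.17.1 and pysam 0.24.0 were used.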

Additional observations from a re-analysis of the deposited data

How the results depend on the processing

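The 9 summary values were recomputed under alternative settings, each applied to the values it bears on, which gave 46 alternative values. Of these, 36 stayed within a limit and 10 did not. The limit was 1.5 times the reported count or the interval of the reported share. For the median percentile it was 11.8, the SD of the 2 percentiles from single replicates. Since it was drawn from those 2 percentiles, it is no independent measure of them. An IDR of 0.001 or less left 3124 of the 5169 sites of the whole list. With it, the 10 genes held 8 sites at 4 genes and the median percentile was 37.6. TGACAG was then present at 37.5% and the gene was nearest at 4 sites. A 500 kb extension gave 153 replicate 1 and 242 replicate 2 peaks. Restricted to a −log10 p of 5 or more, peaks numbered 58 and 68, and 72.4% of the former overlapped. The strongest peaks of a single replicate gave 13 to 19 sites at 7 to 9 genes, median percentiles of 57.6 to 74.3 and TGACAG at 61.5 to 63.2%. The canonical transcript as gene body left 15 sites, with 2 at RARB and 1 at ALDH1A2. With the 500 kb extension CYP26B1 had 1 site. Of 60 alternative counts for single genes, 21 moved by over 1.5 times.

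No paired analysis was possible because Input enters these lists only through the peak calls and offers no second set of values. With 2 replicates of unknown depth, the absence of a site says only that none passed the list's threshold.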
